A study of Homo sapiens with 6 samples.

Results

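Collagen chain genes were examined in PANC-1, a cell line long established from a pancreatic ductal adenocarcinoma of a human donor, after knockdown of the transcription factor SOX9. The members are the rows of the authors' table of gene-wise comparisons whose symbol is COL, digits, A and digits, which gave 40 of 19830 genes. Another 4 rows begin the same way and were left out: the antisense genes COL18A1-AS1 and COL18A1-AS2, the pseudogene COL6A4P1 and COL4A3BP, which encodes a ceramide transport protein. By textbook class 11 members are fibrillar collagens, 8 are basement membrane collagens and 21 are other collagens.

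The groups were SOX9 siRNA with 2 libraries and control siRNA with 2 libraries. Cells of both groups were transfected with 25 nM of siRNA by Lipofectamine and harvested after 48 hours, with transfected cells pooled before RNA extraction. All libraries come from this 1 cell line, and the labels do not say whether a group's libraries came from separate cultures. The p-values thus measure only how these libraries vary, which may be technical. SOX9 ChIP-seq samples of the series were not analysed here. The table holds 1 mean normalized count over all libraries, 1 log2 fold change and 1 standard error per gene. Values and depths of single libraries are therefore not shown, and no overlap between groups can be described.

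Collagens are secreted proteins of 3 chains wound into a triple helix, and many types need chains from several genes. Fibrillar collagens give tissues tensile strength, basement membrane collagens form the sheet under epithelia, and the other classes link, decorate or anchor these structures. In pancreatic cancer most collagen is made by stellate cells and fibroblasts of the stroma, and tumour cells add some of their own. In chondrocytes SOX9, together with SOX5 and SOX6, switches on the cartilage collagens, of which COL2A1 is the best known target.

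A total of 25 collagen chain genes were tested, meaning that the authors gave an adjusted p-value. The other 15 had a mean normalized count of 18.2 or less and were not tested. The authors' filter acts on the mean over all libraries and so does not favour genes high in 1 group. The numerator of the fold changes is not named in the file. They are taken as SOX9 siRNA over control siRNA because SOX9, the siRNA target, stood at 55.9% of control by the authors' deposited table (95% Wald interval 39.2% to 79.8%), with a DESeq2 adjusted p of 0.0643. That value did not pass the threshold of 0.05, and every direction below would turn if the reading were wrong.

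After SOX9 siRNA 1 of the 25 tested collagen chain genes rose and 0 fell at an adjusted p under 0.05 by the authors' deposited DESeq2 table. Among all 14063 tested genes 1.81% were called, 0.868% as rises and 0.939% as falls, so 1 call is near the background. At an unadjusted p under 0.05 there were 2 collagen genes, COL1A1 and COL5A2, both with higher values, while 11.1% of all tested genes passed that mark and 4.98% passed it with a higher value. The median log2 fold change of the tested collagen genes was 0.19, beside -0.02 over all tested genes. Of the 25, 20 had a log2 fold change above 0 and 5 below, while 47.9% of all tested genes were above 0. For 23 of the 25 the 95% interval included no change, so most of these signs are not settled gene by gene.

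**Figure D1:**
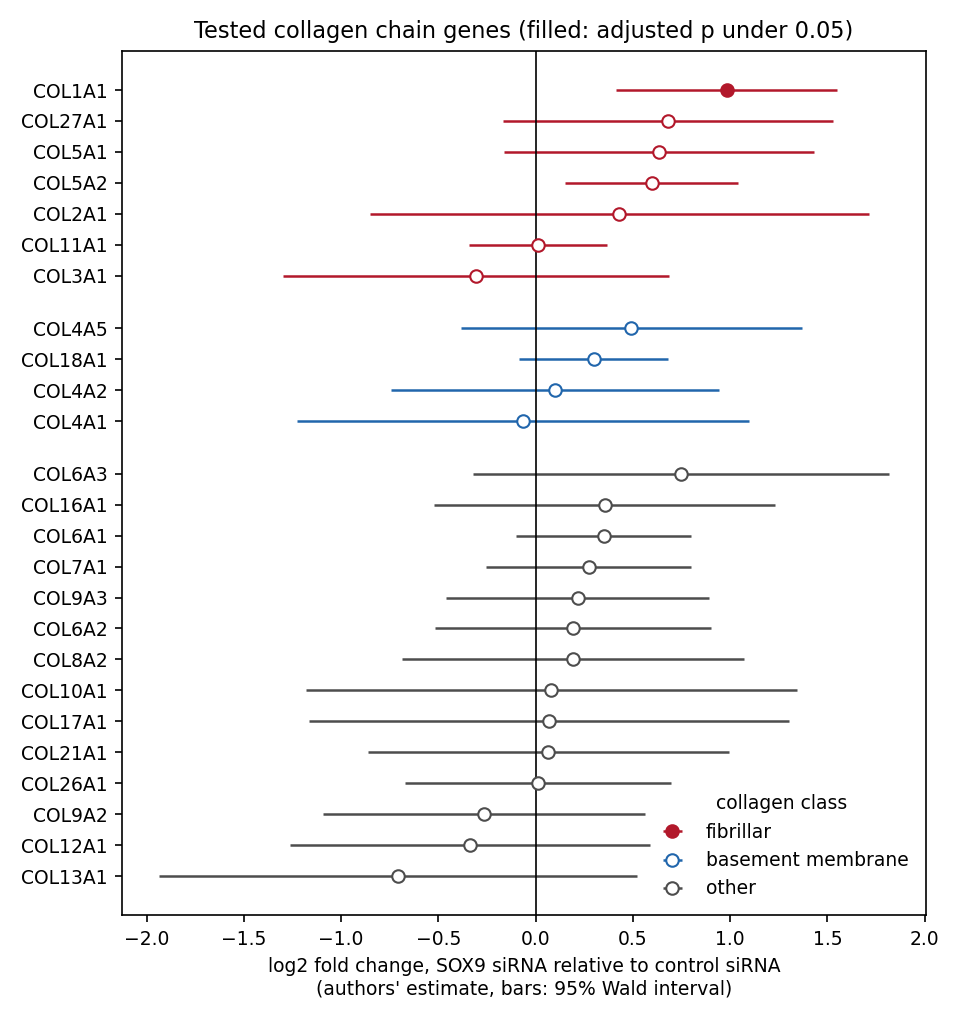
Log2 fold change of the 25 tested collagen chain genes, SOX9 siRNA relative to control siRNA, as the authors estimated it, with 95% Wald intervals, by class. COL1A1 is the filled point (adjusted p under 0.05), COL5A2 is the other gene whose interval leaves out 0, and COL11A1 has the narrowest interval.

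Reads of collagen genes were uneven. Collagen chain genes took 0.290% of all mean normalized counts. COL18A1 held 59.0% of the collagen counts, COL5A2 23.3% and COL11A1 9.35%, so that 3 genes held 91.6%. Counts are not corrected for transcript length and are used here only to show how much evidence stands behind each gene.

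The sign of the change also moved with the mean count across the whole table. All tested genes were split by mean count into 4 equal groups, and 59.5%, 51.7%, 44.4% and 36.0% of all genes had a log2 fold change above 0, from the lowest counts to the highest. Tested collagen genes above 0 numbered 9 of 13, 6 of 7, 2 of 2 and 3 of 3 in the same groups. Because the members were chosen with earlier results known, these counts are given without a test.

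**Figure D2:**
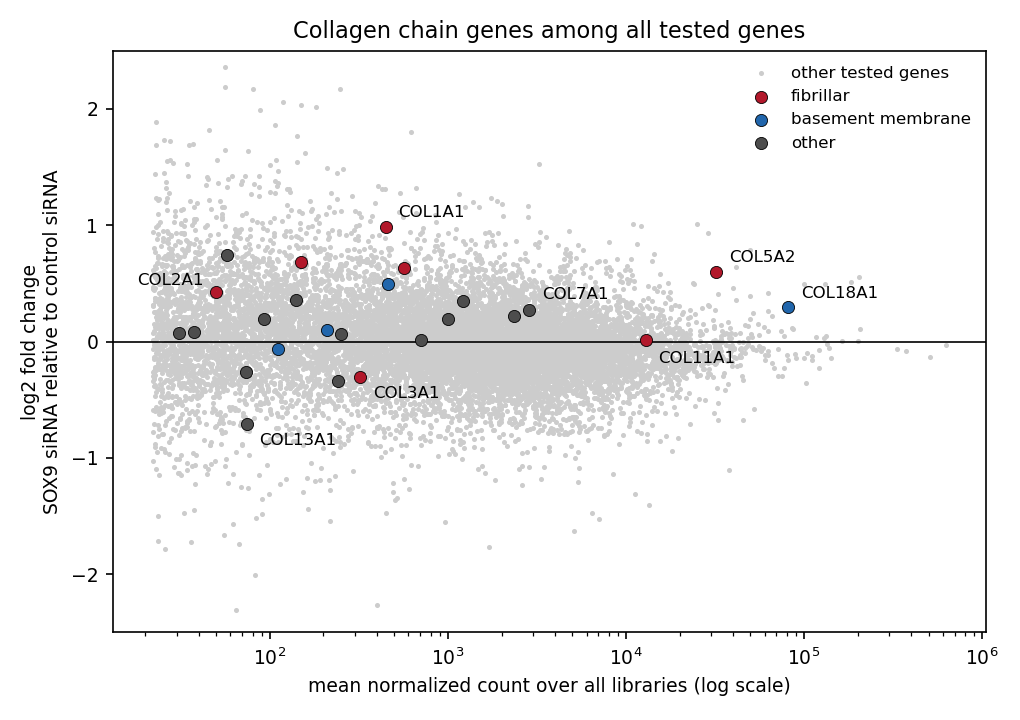
Log2 fold change, SOX9 siRNA relative to control siRNA, against the mean normalized count over all libraries (log scale) for all tested genes, with collagen chain genes coloured by class. COL1A1 lies at 0.98 with a mean count of 449, COL5A2 and COL18A1 lie above 0 among the genes with high counts, and 7 genes lie outside the plotted range of 2.5 either way.

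Of the fibrillar collagens 7 of 11 were tested, 1 rose and 0 fell, with a median log2 fold change of 0.60 against -0.02 over all tested genes. Over all tested genes 1.81% were called. With so few genes per class, a difference between classes was not tested. COL1A1, the chain found in every collagen I molecule, had a mean normalized count of 449 by the authors' deposited table. Split by the fold change, and taking the mean as midway between the groups, this is about 596 in SOX9 siRNA cells and 302 in control siRNA cells. COL1A1 rose 1.97-fold (95% Wald interval 1.33 to 2.93), with a log2 fold change of 0.98, a standard error of 0.29 and a DESeq2 adjusted p of 0.0445 by the authors' deposited table. It ranked 233 by p among the tested genes, close to the threshold. The call was lost when p-values were adjusted over every gene with a p (adjusted p 0.0625) and with a null fitted to all tested genes (0.157).

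COL1A2, the usual partner of COL1A1 in collagen I, had a mean normalized count of 1.52 by the authors' deposited table and was not tested. The library counts thus hold many reads of one partner and next to none of the other. Collagen I can also form from COL1A1 chains alone, which is known from other tumour cells, and RNA counts do not show which molecules were made.

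Collagen V, which starts fibrils of collagen I, had higher point estimates in both chains that were tested. COL5A2 had a mean normalized count of 32212 by the authors' deposited table, about 38789 in SOX9 siRNA cells and 25636 in control siRNA cells by the same split. It stood 1.51-fold above control (95% Wald interval 1.11 to 2.06) with a DESeq2 adjusted p of 0.186, which is not a call. Its partner COL5A1, at about 693 and 447 counts in SOX9 siRNA and control siRNA cells, had a fold change of 1.55 (0.892 to 2.69) by the authors' deposited table. The third chain, COL5A3, had a mean normalized count of 11.2 by the authors' deposited table and was not tested. Both tested chains of collagen V thus had nearly the same estimate, and the interval of COL5A1 included no change. COL5A2 overlaps the KRT18 pseudogene KRT18P19 in RefSeq. KRT18 itself had a mean normalized count of 130452 and a log2 fold change of 0.50 by the authors' deposited table. The part of this overlap in the COL5A2 values was not tested.

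COL3A1, a fibrillar collagen of elastic tissues, lies next to COL5A2 on chromosome 2. It had a lower point estimate, 80.9% of control (40.7% to 161%), at a mean normalized count of 322 by the authors' deposited table. The difference between these neighbours was not tested. COL24A1 had a mean normalized count of 8.64 by the authors' deposited table and was not tested.

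None of the tested collagens that SOX9 is known to control in cartilage was called by the authors' deposited DESeq2 table. Of 8 such genes 7 were in the table and COL9A1 was not analysed here. COL11A2 had a mean normalized count of 0.475 by the authors' deposited table and was not tested. Of the 6 tested, 0 rose and 0 fell, and at an unadjusted p under 0.05 there were also 0. With 1.81% of all tested genes called and 11.1% at that unadjusted p, a count of 0 in 6 genes is near the background. Their median log2 fold change was 0.15, from -0.26 for COL9A2 to 0.68 for COL27A1 by the authors' deposited table.

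How firmly that can be said differs from gene to gene. COL11A1, which starts cartilage fibrils, had about 12996 counts in SOX9 siRNA cells and 12884 in control siRNA cells. Its fold change was 1.01 with a 95% Wald interval from 0.789 to 1.29 and a DESeq2 adjusted p of 0.993 by the authors' deposited table. A change of 1.52-fold would have been called at its standard error of 0.18. COL9A3, a chain that decorates cartilage fibrils, had a fold change of 1.16 (0.727 to 1.86) at a mean normalized count of 2353 by the authors' deposited table. For COL11A1 a 1.5-fold change in either direction lies outside the interval. For COL9A3 a 1.5-fold fall lies outside the interval and a 1.5-fold rise lies inside it.

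COL2A1, the main cartilage collagen, had only about 57.3 counts in SOX9 siRNA cells and 42.5 in control siRNA cells. Its fold change of 1.35 had an interval from 0.554 to 3.28 by the authors' deposited table, and only a change of 4.51-fold or more would have been called. COL27A1, a cartilage fibrillar collagen, stood at 1.60-fold (0.891 to 2.88), and COL10A1, the collagen of hypertrophic chondrocytes, at 1.06-fold (0.441 to 2.54) by the authors' deposited table. COL9A2 stood at 83.2% of control (46.9% to 148%) by the authors' deposited table. A 2-fold change of COL2A1, COL9A2, COL10A1, COL27A1 or COL9A3 would have missed the call. For COL9A3 the smallest callable change was 2.21-fold at its mean normalized count of 2353.

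The cartilage partners of SOX9 were scarce. SOX5 had a mean normalized count of 0.527 and SOX6 of 2.76 by the authors' deposited table, and neither was tested. Of 13 fixed cartilage genes other than collagens, 12 were in the table and 2 were tested. These were MATN3, a matrix protein of cartilage, with a log2 fold change of 0.37, and SNORC, listed as C2orf82, with 0.41, neither of them called by the authors' deposited table. ACAN, the aggrecan core protein, had a mean normalized count of 18.8 and COMP of 13.6 by the authors' deposited table.

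Promoters of a pair of cartilage collagens are shown because they differ in a SOX-type motif. They are the 250 bases before the RefSeq start in GRCh38.p14, COL11A1 at chr1:103108523-103108772 and COL9A2 at chr1:40317287-40317536, both on the minus strand, written 5′ to 3′ toward the start. Capitals mark matches, on either strand, to the SOX-type motifs ACAAAG and ACAATG, to CCAAT, to TATAAA and to the GC box GGGCGG. Matches to GGGCGG overlap in 1 place in COL9A2.
COL11A1: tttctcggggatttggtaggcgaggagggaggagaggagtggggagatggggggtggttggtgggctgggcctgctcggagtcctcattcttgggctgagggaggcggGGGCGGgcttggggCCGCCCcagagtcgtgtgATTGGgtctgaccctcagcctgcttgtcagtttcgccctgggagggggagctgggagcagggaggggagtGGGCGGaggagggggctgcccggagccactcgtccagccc
COL9A2: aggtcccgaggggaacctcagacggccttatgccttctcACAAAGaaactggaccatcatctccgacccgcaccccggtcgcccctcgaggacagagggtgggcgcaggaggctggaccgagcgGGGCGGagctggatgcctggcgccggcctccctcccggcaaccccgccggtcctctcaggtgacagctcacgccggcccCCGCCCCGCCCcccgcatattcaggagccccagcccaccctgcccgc
COL9A2 held 1 ACAAAG and 3 GC boxes, and COL11A1 held 1 CCAAT on the other strand and 3 GC boxes. Neither gene was called.

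RefSeq promoter windows, from 250 bases before to 50 after a start, were given for 29 of the 40 collagen genes, 40 windows in all. COL1A1, COL5A2 and COL2A1 had no window, so they are absent from the shares and medians that follow. ACAAAG on either strand was in 17.5% of these windows and in 16.1% of all 35116 windows, and ACAATG in 7.50% and 10.8%. CCAAT was in 30.0% of collagen windows and 34.6% of all, TATAAA in 20.0% and 11.5%, and GGGCGG in 60.0% and 45.0%. Among tested genes with a window, the 4 with ACAAAG had a median log2 fold change of 0.07 and the 15 without it 0.19. A match is a string of letters and not a binding site, and SOX9 acts on COL2A1 mainly through an enhancer outside the promoter.

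Of the 8 basement membrane collagens 4 were tested, and 0 rose and 0 fell, with 0 at an unadjusted p under 0.05. Over all tested genes the shares were 1.81% called and 11.1% at that unadjusted p, so both counts are near the background. The median log2 fold change of the 4 was 0.20, against -0.02 over all tested genes. COL18A1, a basement membrane proteoglycan whose end fragment is endostatin, had about 90112 counts in SOX9 siRNA cells and 73235 in control siRNA cells. Its fold change was 1.23 (95% Wald interval 0.944 to 1.60) with a DESeq2 adjusted p of 0.628 by the authors' deposited table. COL18A1 overlaps antisense genes and SLC19A1 in RefSeq, and strand-specific counting is not stated in the sources used here. Shared reads therefore cannot be told apart. The same holds for COL9A3, which overlaps TCFL5 in RefSeq, and COL10A1, which overlaps NT5DC1. Other members also have overlaps, among them COL5A2 with the pseudogene KRT18P19, COL11A1 with the pseudogene SOD2P1, and COL5A1 with COL5A1-AS1. The part of such overlaps in the fold changes was not tested. COL18A1-AS1 and COL18A1-AS2 had log2 fold changes of 0.40 and 0.46 by the authors' deposited table, neither called, beside 0.30 for COL18A1.

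Collagen IV, the sheet-forming collagen, was represented mostly by COL4A5, COL4A2 and COL4A1, with mean normalized counts of 460, 210 and 111 by the authors' deposited table. COL4A5, mutated in Alport syndrome, stood at 1.41-fold (0.767 to 2.58) by the authors' deposited table. COL4A1 and COL4A2, which form the common collagen IV together, had log2 fold changes of -0.06 and 0.10 by the authors' deposited table. These lie near 0, but their intervals, 0.427 to 2.14 and 0.596 to 1.92 as folds, are wide. COL4A3, COL4A4, COL4A6 and COL15A1 had mean normalized counts of 13.5, 12.7, 13.1 and 4.15 by the authors' deposited table and were not tested.

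COL4A1 and COL4A2 start back to back, and the stretch between their starts is shown because both genes are read away from it. It has 126 bases, at chr13:110307158-110307283 on the plus strand of GRCh38.p14 (RefSeq), written toward COL4A2, with capitals for a CCAAT and a GC box.
COL4A1 to COL4A2: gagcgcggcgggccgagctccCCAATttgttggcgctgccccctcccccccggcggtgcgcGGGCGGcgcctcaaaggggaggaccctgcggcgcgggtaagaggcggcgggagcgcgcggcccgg
The table has 5 pairs of collagen genes that are next to each other in RefSeq gene order, and in 3 of them both genes were tested. These pairs were COL4A1 with COL4A2, COL3A1 with COL5A2, and COL6A1 with COL6A2. The log2 fold changes of COL3A1 and COL5A2 were -0.31 and 0.60, and those of COL6A1 and COL6A2 were 0.35 and 0.19 by the authors' deposited table. No gene of these pairs was called, and the differences within pairs were not tested.

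Of the 21 other collagens 14 were tested, and 0 rose and 0 fell, with 0 at an unadjusted p under 0.05. With 1.81% of all tested genes called and 11.1% at that unadjusted p, both counts are near the background. Their median log2 fold change was 0.14, against -0.02 over all tested genes. Collagen VI, which forms beaded filaments around cells, had log2 fold changes of 0.35 for COL6A1, 0.19 for COL6A2 and 0.75 for COL6A3 by the authors' deposited table. COL6A1 had the best precision of these, at 1.27-fold (0.933 to 1.74) and a mean normalized count of 1221 by the authors' deposited table. COL7A1, the anchoring fibril that ties epithelia to the matrix, stood at 1.21-fold (0.838 to 1.74) at a mean normalized count of 2862 by the authors' deposited table. All 4 had intervals that included no change.

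Fibril-associated collagens, which sit on the surface of fibrils, had 5 tested members whose log2 fold changes had a median of 0.07. Next to COL9A2 and COL9A3 these were COL16A1 at 1.28-fold, COL21A1 at 1.05-fold and COL12A1 at 79.2% of control by the authors' deposited table. Of the transmembrane collagens, COL13A1, found at cell adhesions, had the lowest value of all tested collagen genes, at 61.2% of control (26.1% to 144%) by the authors' deposited table. COL17A1, the collagen of hemidesmosomes, stood at 1.05-fold (0.446 to 2.47) by the authors' deposited table. COL8A2, a short-chain collagen of the corneal membrane, stood at 1.14-fold and COL26A1 at 1.01-fold by the authors' deposited table. Untested members were COL14A1, COL20A1, COL22A1, COL6A6, COL8A1, COL23A1 and COL28A1, with mean normalized counts between 0.945 for COL8A1 and 18.2 for COL14A1 by the authors' deposited table.

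Among collagen genes with higher counts precision was poor for the count. The smallest change that would have been called, from each gene's standard error, ran from 1.52-fold for COL11A1 to 4.51-fold for COL2A1. It was 2-fold or less for 6 of the 25 tested collagen genes (24.0%), against 72.2% of all tested genes. The median standard error was 0.43 on the log2 scale, against 0.22 over all tested genes. These shares and medians are not matched for count, and 13 of the 25 collagen genes are in the lowest count group. In the upper 3 of the 4 mean count groups there were 12 collagen genes, and 7 of them had a standard error above 90% of the genes of their group. The standard errors of COL3A1 (0.51), COL9A3 (0.35) and COL4A5 (0.45) by the authors' deposited table were above 99.2%, 99.0% and 98.6% of those groups. In the lowest count group 0 of 13 were above 90% and 6 were above the median of their group.

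**Figure D3:**
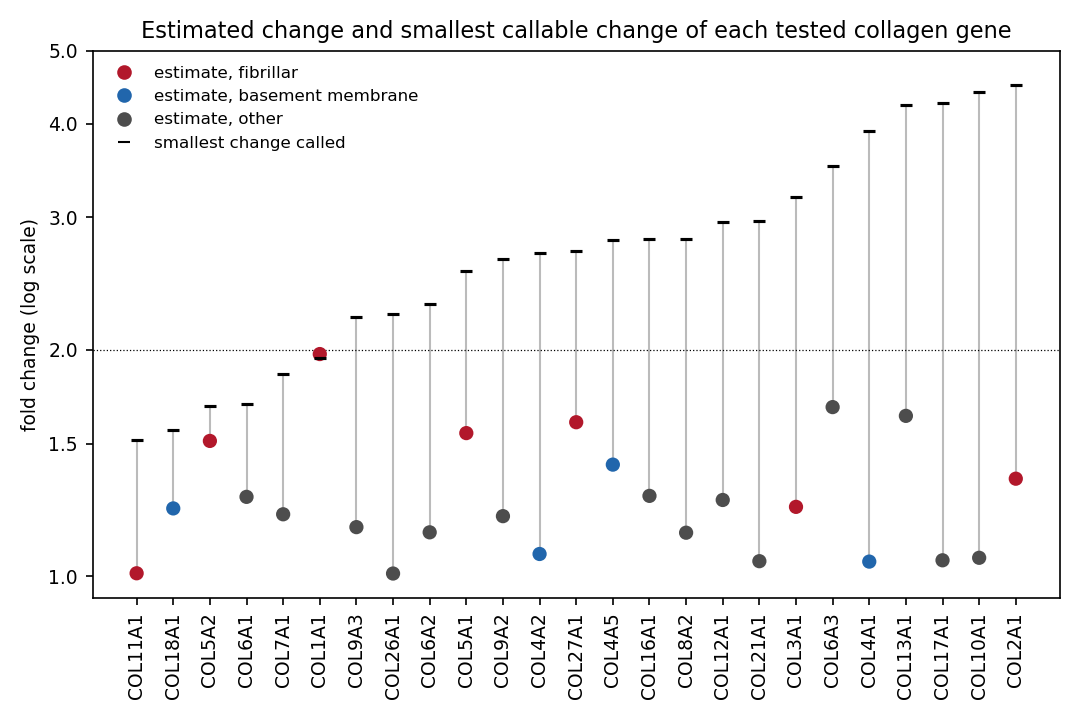
Estimated change of each tested collagen gene in either direction (coloured points, log scale) and the smallest change that would have been called at adjusted p under 0.05 given its standard error (black dashes), ordered by the latter. The estimate of COL1A1, 1.97-fold, lies just above its dash at 1.95-fold, and the estimates of the other 24 genes lie below theirs.

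Genes that fold, process, break down or bind collagen, or that inhibit its breakdown, had no calls. Together with the cartilage genes above, these 5 lists held 75 genes in the table and 55 tested genes, of which 0 rose and 0 fell by the authors' deposited DESeq2 table, while 7 passed an unadjusted p under 0.05. Over all tested genes the shares were 1.81% and 11.1%, so both counts are near the background. Of 22 tested genes of assembly inside the cell, 0 were called, with a median log2 fold change of 0.00, and 4 of the 7 were among them. FKBP14, a folding enzyme for procollagen, had a log2 fold change of 0.82 (adjusted p 0.0819), and CREB3L1, a transcription factor that raises COL1A1 in mouse bone, had 0.99 (adjusted p 0.122) by the authors' deposited DESeq2 table. SERPINH1, the collagen chaperone HSP47, had -0.46 (adjusted p 0.205) by the authors' deposited DESeq2 table. COLGALT2 had the lowest value of the tested assembly genes, -0.86 (adjusted p 0.424), by the same DESeq2 table. P4HB, the most abundant by count and a subunit of prolyl hydroxylase, had -0.00 by the authors' deposited table, with an interval from 0.819 to 1.21 as a fold.

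Of 14 tested genes of extracellular processing and cross-linking 0 were called, with a median of 0.19. SPARC, a collagen-binding protein and the most abundant by count, had a log2 fold change of -0.09 with a wide standard error of 0.99 by the authors' deposited table. LOXL4 and LOXL2, enzymes that cross-link collagen, had log2 fold changes of -0.70 and 0.39 (adjusted p 0.0589 and 0.322) by the authors' deposited DESeq2 table. The collagen breakdown list had 0 calls among 8 tested genes, with a median of 0.38. It mixes genes of breakdown with the protease inhibitors TIMP1 and TIMP2, at 0.41 and 0.17, so its median does not describe degrading genes alone. MRC2, an uptake receptor for collagen fragments and the most abundant of this list by count, had 0.20 by the authors' deposited table. Collagen receptors had 0 calls among 9, with a median of 0.05. ITGB1 and ITGA2, which pair as a collagen receptor, had 0.22 and 0.46 by the authors' deposited table, and ITGA2 had a DESeq2 adjusted p of 0.234 there.

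**Figure D4:**
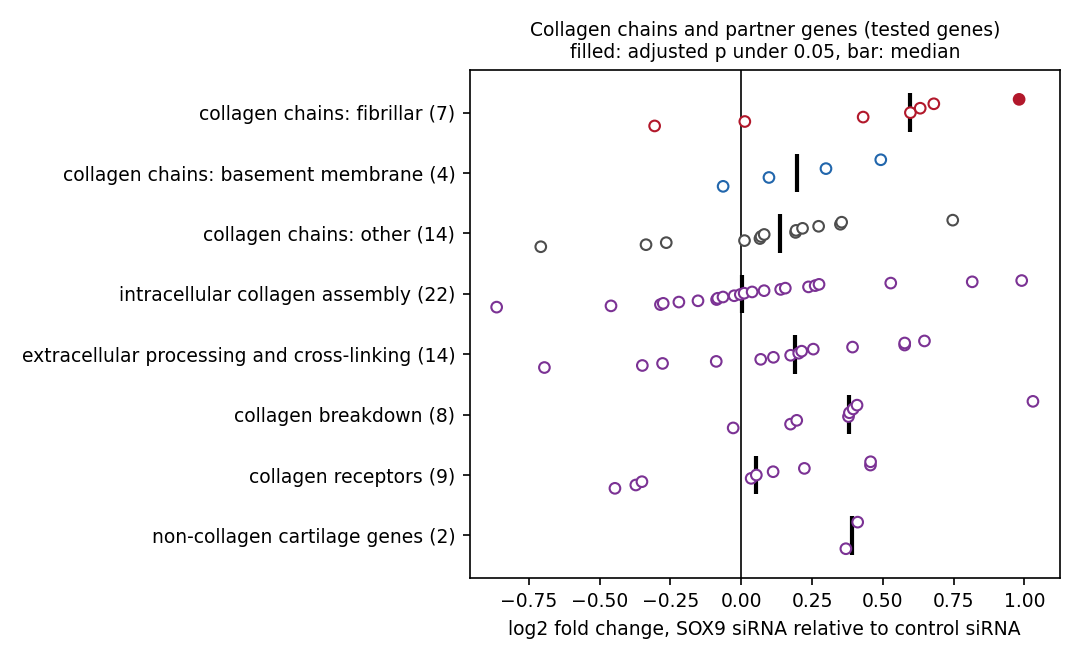
Log2 fold changes, SOX9 siRNA relative to control siRNA, of tested collagen chain genes by class and of tested genes in 5 partner lists, with the number of genes in brackets, 1 point per gene and a bar at each median. COL1A1 is the single filled point (adjusted p under 0.05), and the medians run from 0.00 for assembly genes to 0.60 for fibrillar collagens.

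The identity of the cells was checked by markers. All 8 duct epithelial markers were tested, and KRT8 and KRT18 had mean normalized counts of 203350 and 130452 by the authors' deposited table. The panel was uneven, with KRT7 at 354 and MUC1 lowest at 96.3 by the authors' deposited table. EPCAM fell to 29.5% of control by the authors' deposited table (DESeq2 adjusted p 1.85e-05), and the other 7 epithelial markers were not called but had positive log2 fold changes. Among them KRT8, KRT18 and KRT19, keratins of simple epithelia, had 0.55, 0.50 and 0.50 (adjusted p 0.0786, 0.106 and 0.259) by the authors' deposited DESeq2 table. Of 12 fibroblast and stellate markers 5 were tested and 0 called, and their summed counts, split as above, were 475 in SOX9 siRNA cells and 426 in control siRNA cells. The 5 tested were THY1, RGS5, DES, ACTA2 and PDGFRB, with mean normalized counts of 177, 115, 66.0, 49.8 and 32.0 and positive log2 fold changes from 0.01 to 0.61 by the authors' deposited table. FAP was not analysed here, and PDGFRA, DCN, LUM and POSTN had mean normalized counts of 2.25, 4.37, 1.72 and 1.19 by the authors' deposited table. Of 6 leukocyte markers 3 were tested and 0 called, with summed counts of 245 in SOX9 siRNA cells and 134 in control siRNA cells. CD14 and ITGAM stood at 2.32-fold and 1.88-fold (adjusted p 0.440 and 0.513), and PTPRC, which marks all leukocytes, had a mean normalized count of 2.28 by the authors' deposited DESeq2 table. Of 6 endothelial markers 0 were tested. The part of these markers in the COL1A1 result was not tested. All libraries come from 1 cell line, and in bulk RNA fewer cells that express a marker and less RNA per cell cannot be told apart.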

How the data were processed

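RNA of 2 SOX9 siRNA and 2 control siRNA libraries was compared by the authors. Tools listed in the submitters' processing notes are the aligner HISAT2 2.0.5, the read counter featureCounts and, for the comparison, DESeq2 1.18.1, all without settings. The builds hg19 and mm10 are listed with no role. Per the file headers, the deposited mean normalized count is a signal, the mean over libraries of counts divided by size factors. Fold changes and standard errors were deposited on a log2 scale, the Wald statistic is the authors' score, and both kinds of p-value are those deposited. Recomputed Benjamini-Hochberg values differed from the deposited ones by at most 9.44e-15.

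Computed here were Wald intervals of 1.96 standard errors, group counts split by the fold change, medians, the smallest fold that would be called, and motif searches, with Python 3.11.15, pandas 2.3.3 and scipy 1.17.1. The steps were tested on simulated data. Members and lists were chosen with earlier results of these data known. Members are all rows matching the symbol rule. A fold or log2 fold change with its interval was given for called members, the 3 most abundant of each class, tested cartilage targets and large changes. An adjusted p was given for only some of these. From other lists values were given for the called and most abundant genes. Further list members were named after their values were seen. RefSeq sequences carry build GRCh38.p14.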

Additional observations from a re-analysis of the deposited data

How the results depend on the processing

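For collagen chain genes 8 alternatives were run. COL1A1 remained the single called collagen gene with genes under mean normalized counts of 10 or 100 left out, after centring on the median of tested genes, and at an adjusted p under 0.1. The count was 0 when p was adjusted over every gene, with the empirical null, at an adjusted p under 0.01, and when tested against a 1.5-fold change. The adjusted p of COL1A1 ran from 0.0395 to 1 across these alternatives. Over all genes the count of calls was 254 of 14063 in the main setting. It was 191 with p adjusted over every gene, 96 with the empirical null and 3 against a 1.5-fold change. With genes under mean counts of 10 or 100 left out it was 246 and 260, and after centring 253. At an adjusted p under 0.01 it was 109, and under 0.1 it was 368. In partner lists the count stayed at 0 in 3 of 4 alternatives. At an adjusted p under 0.1 it was 2 of 55, FKBP14 and LOXL4, beside 368 of all 14063 tested genes, which is near the background. All 12 class medians computed under alternatives kept their sign and moved by less than the median standard error of single genes. The fibrillar median ran from 0.43 with untested members included to 0.61. These medians reuse the deposited fold changes on overlapping gene sets or after centring, so they do not test stability. No direction turned in 193 values of single collagen genes, but none could have. Alternatives other than centring reused the deposited log2 fold changes, and centring only subtracted the all-gene median of -0.02. The stability of these directions was therefore not tested. No paired analysis was possible because the table has no values per library, and for the same reason no library could be left out. Precision limits COL2A1, COL10A1, COL13A1 and COL17A1 most, where changes under 4-fold would not have been called.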

Other observations

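A few genes of cell adhesion and matrix had large standard errors for their counts. For SPARC the standard error was 0.99 at a mean normalized count of 5932 by the authors' deposited table. It was above 99.9% of tested genes in the same of the 4 mean count groups, whose median was 0.17. CDH1, the epithelial cadherin, had a log2 fold change of 0.63 with a standard error of 0.77 at a mean normalized count of 1426 by the authors' deposited table, above 99.7% of its group. The table has no values per library to set beside these. CDH1 was singled out after its value was seen.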
